A study of Homo sapiens with 9 samples.

Results

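The 10 genes described here are FOS, JUN, JUNB, EGR1 and IER2, which encode immediate early proteins, and DUSP1, DUSP5, DUSP6, ETV1 and SPRY2, which belong to the feedback and output of mitogen-activated protein kinase (MAPK) signalling. They are named by symbol, as a set chosen with earlier results of these data known. Each had exactly 1 probe set, the group of short probes that reads 1 transcript on the array, so they make up 10 of the 8746 probe sets that are not controls. The cells were LAN-5, a long-established line from a human neuroblastoma, and their RNA was hybridised to 9 single-channel Affymetrix arrays. All cells were grown in complete DMEM to 80% confluence and plated at 60000 cells per square cm. There were 3 arrays from cells given the S100B protein at 5 µM, 3 from cells given it at 0.5 nM and 3 from untreated cells. The series design calls the 3 arrays of a group biological replicates. All arrays come from 1 cell line, and neither the length of the treatment nor any vehicle for the untreated cells is given in the sources used here.

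Immediate early genes are transcribed within minutes of a growth signal, from factors already present in the cell, and most of their transcripts decay within hours. Ligands of many receptors activate RAS and then a chain of kinases that ends in MEK and ERK, and ERK phosphorylates ELK1, which acts with SRF at the promoters of FOS and EGR1. The same cascade induces its own brakes, among them phosphatases that remove phosphate from MAP kinases and the Sprouty proteins, which act near the top of the cascade. Extracellular S100B binds the receptor RAGE, which can signal through ERK. Transcripts of this kind are read at the time of harvest, so a response that has come and gone is not seen.

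In RefSeq's table of promoters (GRCh38.p14), 9 of the 10 genes had an entry, with 16 windows in all, since ETV1 has 6 transcript starts listed, some of them close together, and SPRY2 has 3. The 250 bases before each transcript start were searched on both strands for the CArG box bound by SRF, for the cyclic AMP response element TGACGTCA, and for the shorter core TGACG, which lies inside the full element on both strands. A CArG box stood in 1 of the 16 windows, that of EGR1, against 1.16% of all 35116 windows of this length. The full element stood in 1 of the 16, that of DUSP1, against 1.65%. The core stood in 10 of the 16, against 21.2%, among them 3 of the 6 windows of ETV1 and 1 of the 3 of SPRY2. The windows of EGR1, DUSP1 and FOS follow, 5′ to 3′ on the strand of the gene, because that of EGR1 holds the CArG boxes, that of DUSP1 the full element and that of FOS a core alone. Capitals mark the CArG boxes and the full elements and cores. They lie at chr5:138465229-138465478 on the plus strand for EGR1, chr5:172771196-172771445 on the minus strand for DUSP1 and chr14:75278578-75278827 on the plus strand for FOS.
EGR1: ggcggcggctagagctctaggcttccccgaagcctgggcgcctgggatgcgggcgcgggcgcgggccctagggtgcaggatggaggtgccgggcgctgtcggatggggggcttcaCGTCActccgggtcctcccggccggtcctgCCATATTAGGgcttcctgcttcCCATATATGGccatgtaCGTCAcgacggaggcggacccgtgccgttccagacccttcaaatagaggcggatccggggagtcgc
DUSP1: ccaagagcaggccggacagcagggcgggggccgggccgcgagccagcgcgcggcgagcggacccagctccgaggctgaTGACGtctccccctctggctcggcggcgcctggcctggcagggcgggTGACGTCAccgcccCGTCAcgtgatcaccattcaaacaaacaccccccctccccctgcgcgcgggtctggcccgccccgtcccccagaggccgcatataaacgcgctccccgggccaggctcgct
FOS: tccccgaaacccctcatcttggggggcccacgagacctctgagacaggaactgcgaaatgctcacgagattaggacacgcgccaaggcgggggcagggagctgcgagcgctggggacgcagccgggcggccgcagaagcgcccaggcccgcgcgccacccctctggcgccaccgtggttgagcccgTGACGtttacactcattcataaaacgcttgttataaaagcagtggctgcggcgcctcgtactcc
The CArG boxes of EGR1 run from -105 to -96 and from -83 to -74, counted back from -1 at the last base before the start. The full element of DUSP1 runs from -125 to -118, and the core in FOS from -64 to -60. These are matches of letters in a window, and no binding was measured. Bases farther than 250 from the start were not searched, so a CArG box there, in FOS or another gene, would not be seen.

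The arrays were alike as a whole. Over all probe sets Pearson's r was 0.996 to 0.998 for 2 arrays from the same group and also 0.996 to 0.998 for 2 from different groups. Of 17 measured markers of noradrenergic neuroblastoma, 16 lay above a mean of 5.95 log2 over all arrays. The dimmest 2916 probe sets did not pass that level, and 5830 of all 8746 did. Among the 16 were GATA3, the chromogranin CHGA and dopamine beta-hydroxylase DBH, and the exception was tyrosine hydroxylase, TH. The same level was passed by 3 of 5 leukocyte and 3 of 8 mesenchymal and Schwann-like markers. It was also passed by 3 of 6 epithelial and 2 of 5 astrocyte and oligodendrocyte markers. Passing it therefore says little by itself about which markers the cells carried. Array means of the 17 markers were 9.58 to 9.77 log2 at 5 µM and 9.65 to 9.68 at 0.5 nM. In untreated cells they were 9.47 to 9.66. The difference between the 3' and 5' probe sets of ACTB, a measure of RNA integrity, was -0.11 to 0.14 log2 at 5 µM, -0.11 to 0.01 at 0.5 nM and -0.16 to 0.11 in untreated cells, so the groups overlapped. By mean over all arrays, 8 of the 10 genes lay above those dimmest probe sets, while FOS and JUN lay among them. No measure of signal over background was used here, so whether FOS and JUN were detected is not known. The same holds for the other 8. JUNB, DUSP5 and EGR1, at means of 6.53, 6.34 and 6.25 log2, lay below the leukocyte markers CD3E and HLA-DRA, at 7.29 and 6.71.

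None of the 10 genes passed the test in any comparison. At 5 µM against untreated cells 0 of 10 had a limma adjusted p under 0.05, where 0.183% of all 8746 probe sets did, and 1 of 10 had an unadjusted p under 0.05 (7.71% of all). At 0.5 nM against untreated cells 0 of 10 passed (0% of all), with 1 of 10 at an unadjusted p under 0.05 (4.04% of all). At 5 µM against 0.5 nM 0 of 10 passed (0.160% of all), with 2 of 10 at an unadjusted p under 0.05 (4.44% of all). A limma F test of any difference among the 3 groups gave 0 of 10 (0.160% of all), with 2 of 10 at an unadjusted p under 0.05 (5.66% of all). By an unmoderated test 0 of 10 passed in each of these, where 1, 0, 1 and 1 of all 8746 probe sets did. With so few passing, that count says little about the 10 genes.

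The intervals bound how large a difference in the deposited values these arrays could have missed. They do not bound a change in the transcript of a gene that was not detected, and detection was not measured for any of the 10. Over the 30 differences, the 95% intervals of limma, not adjusted for their number, reached from 73.5% to 134.8% of the level in the group compared against. On either side of the difference the interval extended by 0.11 to 0.23 log2 among the 10 genes, and by a median of 0.13 over all probe sets. At 5 µM the median fold change of the 10 genes was 0.00069 log2 against untreated cells, beside -0.02 over all probe sets, and 5 of 10 had a higher mean (40.9% of all). At 0.5 nM the median was -0.05 against untreated cells, beside -0.01 over all, and 2 of 10 had a higher mean (41.6% of all). Between the doses it was 0.03, beside -0.0047 over all, and 7 of 10 had a higher mean at 5 µM (47.2% of all). These comparisons share their groups, so they are not independent of each other.

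**Figure D1:**
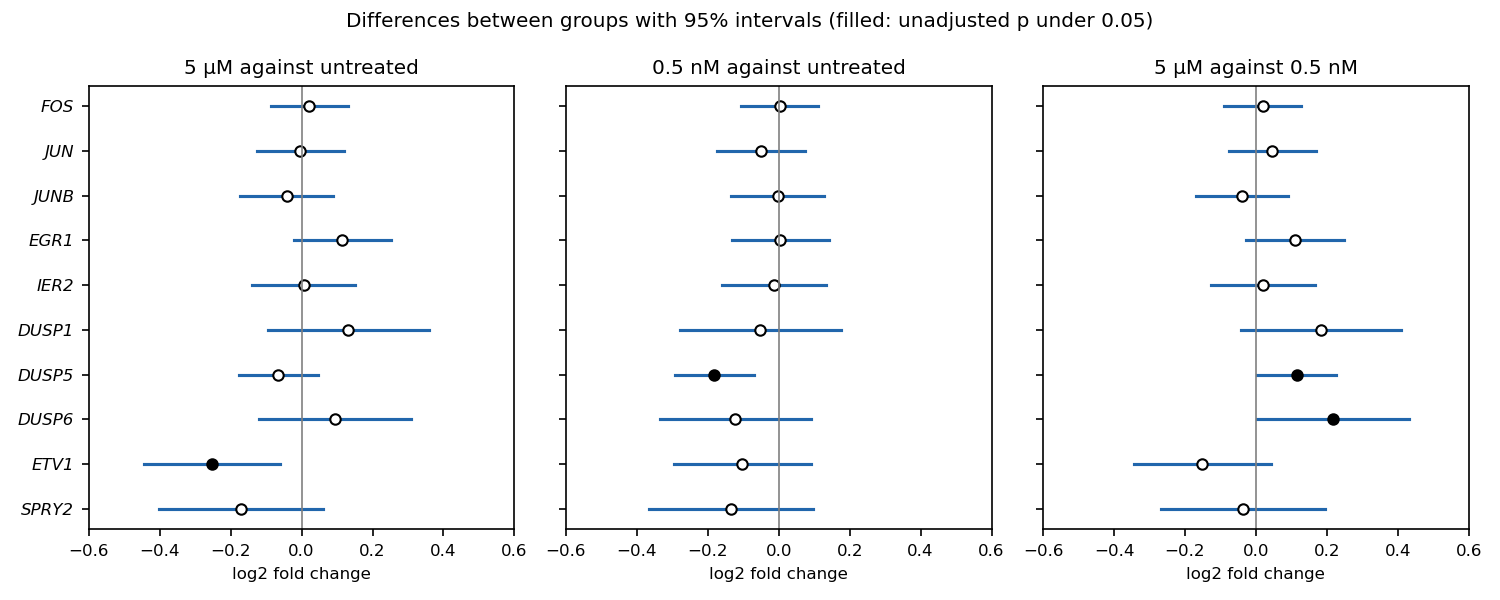
Log2 fold change of each of the 10 genes (points) with its 95% interval from limma (lines) in the 3 comparisons, the first-named group over the second, and filled points where the unadjusted p is under 0.05. ETV1 at 5 µM and DUSP5 at 0.5 nM lie lowest against untreated cells, at -0.25 and -0.18.

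Each of the AP-1 genes had similar deposited values across the groups. FOS, the partner of JUN in the AP-1 transcription factor, had 5.64, 5.63 and 5.62 log2 at 5 µM, 5.66, 5.62 and 5.54 at 0.5 nM, and 5.62, 5.66 and 5.53 in untreated cells. The 5 µM values lay inside the range of each other group. FOS differed from untreated by 0.02 ± 0.05 log2 (SE) at 5 µM, with a 95% interval of -0.09 to 0.13, and by 0.0021 ± 0.05 at 0.5 nM.

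JUN had 5.08, 5.22 and 5.05 log2 at 5 µM, 5.08, 5.01 and 5.12 at 0.5 nM, and 5.07, 5.14 and 5.15 in untreated cells. The 3 groups overlapped, with the lowest array at 0.5 nM and the highest at 5 µM. The difference from untreated was -0.0041 ± 0.05 (SE) at 5 µM and -0.05 ± 0.05 at 0.5 nM. JUNB, another AP-1 member that can restrain JUN, had 6.42, 6.53 and 6.55 log2 at 5 µM, 6.48, 6.63 and 6.50 at 0.5 nM, and 6.53, 6.61 and 6.49 in untreated cells. Its groups overlapped as well, and the difference from untreated was -0.04 ± 0.06 at 5 µM and -0.0035 ± 0.06 at 0.5 nM.

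EGR1, a zinc finger transcription factor whose window holds the CArG boxes shown above, had 6.47, 6.25 and 6.26 log2 at 5 µM, 6.25, 6.20 and 6.20 at 0.5 nM, and 6.17, 6.25 and 6.21 in untreated cells. Replicate 1 at 5 µM stood above the other 8 arrays, which lay between 6.17 and 6.26. The difference at 5 µM was 0.11 ± 0.06 (SE) against untreated, or 108.3% of the untreated level with a 95% interval of 98.5% to 119.0%, and it did not pass (limma adjusted p = 0.687). Without replicate 1 at 5 µM it was 0.04. Against 0.5 nM the 5 µM mean differed by 0.11 ± 0.06, and by 0.04 without the same array, and 0.5 nM differed from untreated by 0.0042 ± 0.06.

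IER2, an immediate early nuclear protein, had 9.71, 9.57 and 9.70 log2 at 5 µM, 9.76, 9.66 and 9.51 at 0.5 nM, and 9.66 on each array of untreated cells. Treated arrays lay on both sides of the untreated ones. The difference from untreated was 0.0054 ± 0.07 (SE) at 5 µM, with a 95% interval of -0.14 to 0.15, and -0.01 ± 0.07 at 0.5 nM.

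**Figure D2:**
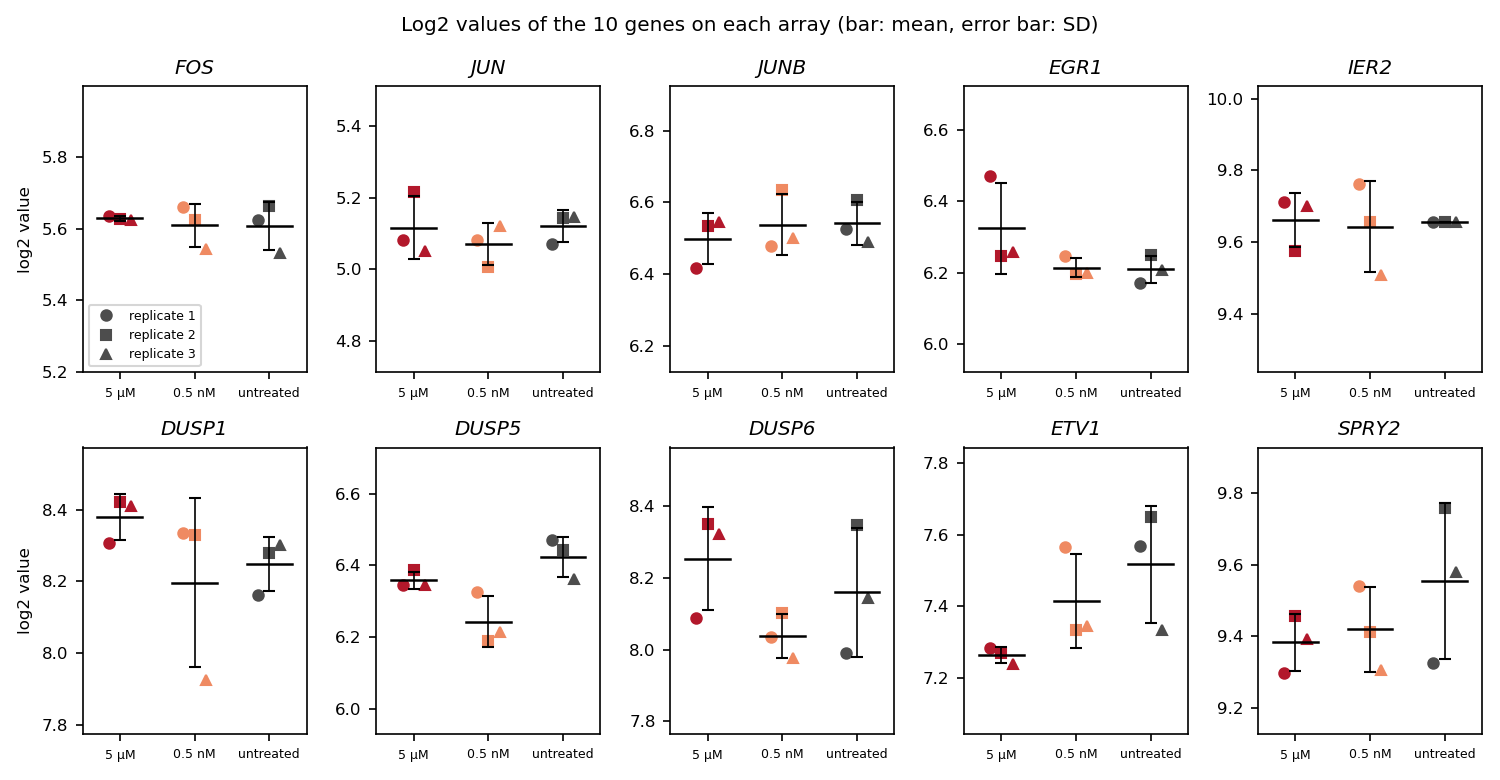
Log2 value of each gene on each of the 9 arrays, by group, with marker shapes for replicates, bars for the mean and error bars for the SD of the 3 arrays and the same span on each vertical axis. ETV1 is lowest on the 3 arrays at 5 µM, and DUSP5 on the 3 arrays at 0.5 nM.

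The phosphatases come next. DUSP1, a nuclear phosphatase of MAP kinases that is itself an immediate early gene, had 8.31, 8.42 and 8.41 log2 at 5 µM, 8.34, 8.33 and 7.93 at 0.5 nM, and 8.16, 8.28 and 8.30 in untreated cells. The 5 µM arrays lay above all untreated arrays, the lowest of them at 8.308 beside the highest untreated array at 8.303, and replicate 3 at 0.5 nM stood below all other arrays. DUSP1 differed by 0.13 ± 0.10 (SE) at 5 µM against untreated (limma adjusted p = 0.792) and by -0.05 ± 0.10 at 0.5 nM against untreated. Between 5 µM and 0.5 nM the difference was 0.18 ± 0.10, and without replicate 3 at 0.5 nM it was 0.05.

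DUSP5, a nuclear phosphatase specific for ERK, had 6.34, 6.39 and 6.34 log2 at 5 µM, 6.32, 6.19 and 6.22 at 0.5 nM, and 6.47, 6.44 and 6.36 in untreated cells. The 0.5 nM arrays lay below all arrays of both other groups, while 5 µM and untreated arrays overlapped. At 0.5 nM DUSP5 was at 88.2% of untreated, a difference of -0.18 ± 0.05 (SE) with a 95% interval of -0.29 to -0.07. Its unadjusted p of 0.00468 ranked 21 among 8746, and it did not pass (limma adjusted p = 0.979). The 5 µM mean was 0.12 ± 0.05 above 0.5 nM (unadjusted p = 0.0429, limma adjusted p = 0.988) and differed from untreated by -0.07 ± 0.05. The F test for DUSP5 had an unadjusted p of 0.0140 and an adjusted p of 0.760. In order of means, untreated came first and then 5 µM, with overlapping arrays, and 0.5 nM was last.

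DUSP6, a cytoplasmic phosphatase specific for ERK that is often read as a measure of ERK activity, had 8.09, 8.35 and 8.32 log2 at 5 µM, 8.03, 8.10 and 7.98 at 0.5 nM, and 7.99, 8.35 and 8.14 in untreated cells. Untreated arrays spanned nearly the range of both treated groups, and replicate 1 at 5 µM lay below the highest array at 0.5 nM. The 5 µM mean was at 116.2% of that at 0.5 nM, a difference of 0.22 ± 0.10 (SE) with an unadjusted p of 0.0478, which did not pass (limma adjusted p = 0.988). Against untreated DUSP6 differed by 0.09 ± 0.10 at 5 µM and by -0.12 ± 0.10 at 0.5 nM. Without untreated replicate 1 these were 0.0091 and -0.21, and without untreated replicate 2 they were 0.19 and -0.03.

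Groups whose arrays did not overlap were counted next, beside the same count over all probe sets. At 5 µM against untreated these were DUSP1, higher, and ETV1, lower, 2 of 10 against 13.0% of all probe sets. At 0.5 nM against untreated it was DUSP5, lower, 1 of 10 against 7.65%. Between 5 µM and 0.5 nM they were DUSP5, higher at 5 µM, and ETV1, lower, 2 of 10 against 7.11%.

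ETV1, an ETS family transcription factor whose transcript is an output of ERK signalling in several tumours, had 7.28, 7.27 and 7.24 log2 at 5 µM, 7.57, 7.33 and 7.34 at 0.5 nM, and 7.57, 7.65 and 7.33 in untreated cells. The 5 µM arrays lay close together and below the other 6 arrays, and 0.5 nM and untreated arrays overlapped. At 5 µM ETV1 was at 83.9% of untreated, with a 95% interval of 73.5% to 95.9%, a difference of -0.25 ± 0.09 (SE). Its unadjusted p was 0.0151 and ranked 247 among 8746, and it did not pass (limma adjusted p = 0.536). The difference from 0.5 nM was -0.15 ± 0.09, and -0.08 without replicate 1 at 0.5 nM. That of 0.5 nM from untreated was -0.10 ± 0.09, and ran from -0.19 without untreated replicate 3 to -0.04 without untreated replicate 2. In order of means untreated was first, 0.5 nM second and 5 µM last, and the first 2 did not differ beyond their spread.

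The markers of other cells were set beside ETV1. The mean of the 6 epithelial markers was 5.73 to 5.74 log2 at 5 µM, 5.76 to 5.78 at 0.5 nM and 5.77 to 5.85 in untreated cells. The 5 µM and untreated arrays did not overlap in this mean, and among single probe sets 13.0% of all did not overlap there. Of these markers 3 lay above the dimmest probe sets and 0 passed the test at either dose. The epithelial transcription factor ELF3 averaged 6.34 at 5 µM, 6.44 at 0.5 nM and 6.58 in untreated cells, a difference of -0.24 at 5 µM with an unadjusted p of 0.00041 and a limma adjusted p of 0.117. The keratins KRT8, KRT18 and KRT19 differed by -0.11, -0.01 and -0.0074 there, and the adhesion molecules EPCAM and CDH1 by -0.02 and -0.03. Of these KRT19, EPCAM and CDH1 were among the dimmest. Array means of the other marker lists overlapped between 5 µM and untreated cells. For 5 leukocyte markers they were 6.10 to 6.25 at 5 µM, 6.08 to 6.22 at 0.5 nM and 6.16 to 6.28 in untreated cells. In that list CD74 and HLA-DRA, which take part in antigen presentation, were at -0.32 and -0.14 at 5 µM against untreated, with limma adjusted p of 0.451 and 0.591. The pan-leukocyte marker PTPRC was at 0.03 and CD14 at 0.08, both among the dimmest, and CD3E was at -0.02. For 8 mesenchymal and Schwann-like markers the array means were 6.35 to 6.45 at 5 µM, 6.39 to 6.44 at 0.5 nM and 6.43 to 6.49 in untreated cells. In that list the differences at 5 µM against untreated ran from -0.32 for LUM to 0.06 for COL3A1, both matrix proteins among the dimmest. Their median was -0.03, VIM was at -0.01, and the limma adjusted p of LUM was 0.438. For 5 astrocyte and oligodendrocyte markers the means were 5.67 to 5.76 at 5 µM, 5.71 to 5.75 at 0.5 nM and 5.73 to 5.74 in untreated cells. In these lists too 0 passed the test in any comparison. The part of these markers in the values of ETV1 was not tested. The probe sets of EGR1, DUSP1, DUSP6 and ETV1 are of the type that can match more than 1 transcript.

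SPRY2, a Sprouty protein that restrains receptor tyrosine kinase signalling, had 9.30, 9.46 and 9.39 log2 at 5 µM, 9.54, 9.41 and 9.31 at 0.5 nM, and 9.32, 9.76 and 9.58 in untreated cells. Untreated replicates 2 and 3 were the highest of the 9 arrays, while untreated replicate 1 lay among the treated ones. SPRY2 differed from untreated by -0.17 ± 0.10 (SE) at 5 µM (limma adjusted p = 0.724) and by -0.13 ± 0.10 at 0.5 nM (limma adjusted p = 0.979). Without untreated replicate 2 these were -0.07 and -0.03, and without untreated replicate 1 they were -0.29 and -0.25.

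DUSP5, DUSP6, ETV1 and SPRY2 are feedback or output genes but not immediate early genes in the usual sense. Taken as a mean, these 4 genes were highest on 1 array. On untreated replicate 2 their mean deviation from each gene's mean over 9 arrays was 0.21 log2, against -0.13 to 0.03 on the other 8 arrays. On that array all 4 lay above their means, and FOS, ETV1 and SPRY2 had their highest value there. DUSP5 was highest on untreated replicate 1 and DUSP6 on replicate 2 at 5 µM. The median of all probe sets on untreated replicate 2, 6.639 log2, was the highest of the 9 arrays. Replicate 3 at 0.5 nM held the lowest value of 3 of the 10 genes, IER2, DUSP1 and DUSP6. The mean deviation of the other 6 genes ran from -0.10 on that array to 0.03.

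**Figure D3:**
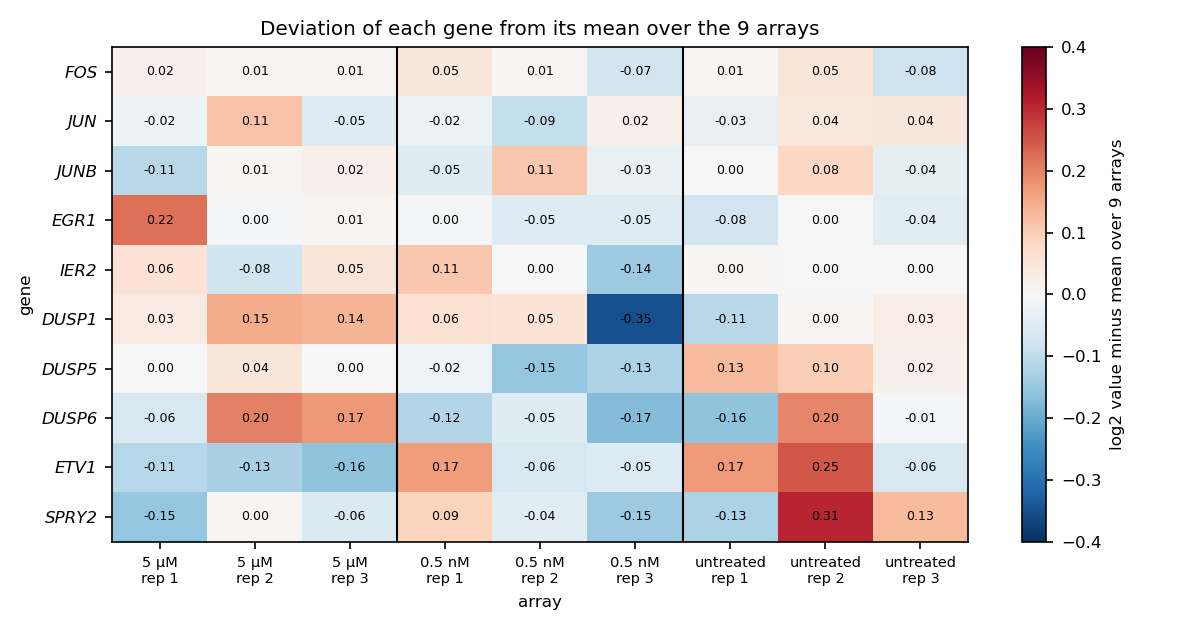
Deviation of each gene (rows) on each array (columns) from its mean over the 9 arrays, in log2, with the value in each cell; red is above and blue below the mean. Averaged over DUSP5, DUSP6, ETV1 and SPRY2, the array of untreated replicate 2 is highest at 0.21, and replicate 3 at 0.5 nM is lowest for DUSP1.

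Beyond the group means, the genes were also compared in pairs from array to array. After subtraction of group means, the pairs with the highest Pearson's r over the 9 arrays were DUSP5 with ETV1, FOS with ETV1 and DUSP6 with SPRY2. Their r was 0.88, 0.88 and 0.84, and without the subtraction it was 0.47, 0.43 and 0.53. These pairs are the top of 45, and no share over pairs of other probe sets was computed. Over all 45 pairs r ran from -0.57 to 0.88 with a median of 0.25, and 13 pairs were below 0. These values describe 9 arrays on which all genes share the same hybridisation. The gene whose values over the 9 arrays were most like those of SPRY2, among 5225 other genes' probe sets that were not among the dimmest, was IDS, at r = 0.98. For ETV1 it was SSUH2 at 0.92, for DUSP5 ZNF22 at 0.96, for DUSP6 SEC24B at 0.92 and for DUSP1 QDPR at 0.95. Among immediate early genes it was NUP88 for FOS at 0.97, CD3G for EGR1 at 0.96, C1QTNF1 for JUNB at 0.94, C6 for JUN at 0.92 and USP20 for IER2 at 0.92. Each of these is the highest r in a search of at least 5225 probe sets over only 9 arrays, so its height alone says little. None of the 10 had another of the 10 as its closest match, which so few members among so many candidates would rarely be. FOS and JUN, among the dimmest, were not candidates. Without subtraction of group means, the highest r between 2 of the 10 was 0.66, for DUSP1 and DUSP6.

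The rest of the pathway was described by 3 further lists. Of 38 other immediate early genes 31 were measured, and 0 rose and 0 fell in any of the 3 comparisons by limma's adjusted p. Of the 31, 1 had an unadjusted limma p under 0.05 at 5 µM against untreated, where 7.71% of all probe sets did. There were 0 at 0.5 nM against untreated (4.04% of all) and 1 at 5 µM against 0.5 nM (4.44% of all). At 5 µM the list median was -0.0035 log2 against untreated, beside -0.02 over all probe sets, with a range of -0.13 to 0.18. At 0.5 nM it was -0.0028, with a range of -0.11 to 0.10. Against untreated at 5 µM, the AP-1 members FOSB, FOSL2 and JUND were at -0.09, -0.04 and 0.05, the stress factor ATF3 at 0.02, IER3 at -0.09 and the repressor KLF10 at 0.18. At 0.5 nM FOSB was at -0.11, FOSL2 at 0.0074, JUND at -0.02, ATF3 at -0.01, IER3 at -0.11 and KLF10 at 0.02.

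Of 20 other MAPK feedback and output genes 11 were measured, and 0 rose and 0 fell in the 3 comparisons. Of the 11, 1 had an unadjusted limma p under 0.05 at 5 µM against 0.5 nM, where 4.44% of all probe sets did. It was EPHA4, named after its value was seen, at -0.15. There were 0 at 5 µM against untreated (7.71% of all) and 0 at 0.5 nM against untreated (4.04% of all). The list median at 5 µM against untreated was -0.0053, with a range of -0.04 to 0.20, and at 0.5 nM it was 0.01, with a range of -0.08 to 0.10. The phosphatase DUSP4 was at -0.03 at 5 µM and 0.01 at 0.5 nM, and DUSP8, a phosphatase that prefers JNK and p38, at 0.20 and 0.01. ETV5, a relative of ETV1, was at -0.01 and -0.04, and the cyclin CCND1 at 0.04 and -0.04.

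Of 37 genes of the MAPK cascade and its transcription factors 25 were measured, and again 0 rose and 0 fell. Of the 25, 2 had an unadjusted limma p under 0.05 at 5 µM against untreated, where 7.71% of all probe sets did. There were 0 at 0.5 nM against untreated (4.04% of all) and 0 at 5 µM against 0.5 nM (4.44% of all). The list median was -0.02 at 5 µM, with a range of -0.17 to 0.19, and -0.02 at 0.5 nM, with a range of -0.14 to 0.17. MAP2K1, which encodes MEK1, was at 0.04 at 5 µM and -0.01 at 0.5 nM, ELK1 at -0.08 and -0.07, and SRF at -0.04 and -0.04. Between 5 µM and 0.5 nM the 3 list medians were 0.0080, 0.03 and -0.00053, beside -0.0047 over all probe sets.

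**Figure D4:**
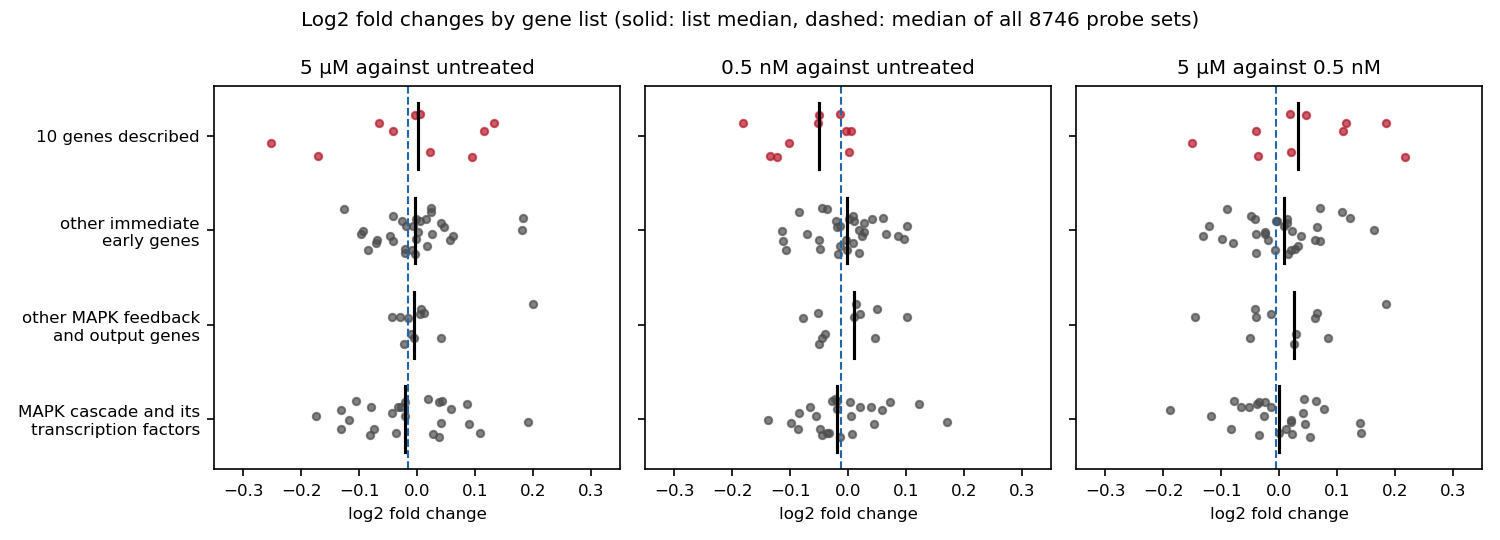
Log2 fold change (horizontal axis) of each gene (points) in the 10 genes described and in 3 further lists, in the 3 comparisons, with solid lines at list medians and a dashed line at the median of all 8746 probe sets; vertical scatter within a list has no meaning. The medians lie between -0.05 and 0.03 in all panels.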

How the data were processed

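The deposited table holds 1 log2 value per probe set and array, from 4.37 to 14.5, for 8793 probe sets. Per the submitters' processing notes the authors used GCRMA; its version and settings are not stated there. It corrects background by probe sequence and normalises between arrays, which can compress differences of dim probe sets. No source names the log base, and log2 is inferred from this range. Biotin-labelled cRNA was made from 5 µg total RNA, per the labels' protocols.

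Groups and replicate numbers came from the sample titles. The 47 control probe sets were removed. Members were matched by symbol in the platform annotation, other genes by symbol updated through RefSeq, using the probe set of highest mean where a gene had several. Of 8746 probe sets 7840 had 1 symbol, 388 several and 518 no entry, and only the first are named.

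No intensity filter was applied, and the filter tried as an alternative left out the 2916 dimmest (mean up to 5.95). limma 3.58.1 in R 4.3.3 (lmFit, eBayes, defaults) was fitted to all 9 arrays in 3 groups with no covariate, and eBayes estimated 3.62 prior degrees of freedom with an SD of 0.0696 log2. Each comparison was adjusted by Benjamini-Hochberg over 8746 probe sets, with a threshold of 0.05, and the fit was tested on simulated data. With 3 arrays against 3, an exact permutation test cannot go below p = 0.1, so none is given. The number of arrays limits the precision.

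Named genes are the 10 members, genes of 3 pathway lists set by name, and the closest match of each member by Pearson's r. The members and lists were chosen with earlier results of these data known. Alternatives were the filter, quantile normalization, median centring, a replicate block, fits of 2 groups, eBayes with a trend or robust, an unmoderated test, and leaving out arrays.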

Additional observations from a re-analysis of the deposited data

How the results depend on the processing

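In all 20 alternatives 0 of the 10 genes passed in any of the 3 comparisons or in the F test, which a fit of 2 groups cannot give, and the smallest adjusted p was 0.320, for ETV1 at 5 µM against untreated without untreated replicate 3. The number with an unadjusted p under 0.05 was 0 to 2 at 5 µM against untreated, 0 to 3 at 0.5 nM against untreated, 0 to 3 between the doses and 0 to 3 in the F test. ETV1 at 5 µM against untreated ran from -0.34 to -0.19, with an unadjusted p under 0.05 in 16 of 20 alternatives. DUSP5 at 0.5 nM against untreated ran from -0.22 to -0.15, with such a p in 19 of 20. These 2 had the lowest unadjusted limma p of the 10 genes in those comparisons as reported. The alternatives refit the same arrays or part of them, so these counts are not independent repeats. Over all probe sets 0 to 22 passed at 5 µM against untreated (16 as reported), 0 to 22 between the doses (14 as reported), 0 to 17 in the F test (14 as reported) and 0 at 0.5 nM against untreated.

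Of 594 recomputed differences, 549 kept their sign and 45 did not, none of which passed the test before or after. Quantile normalization turned JUNB at 0.5 nM against untreated to 0.0255, and median centring turned JUNB and IER2 there to 0.0237 and 0.0132 and JUN at 5 µM against untreated to 0.0191. The cause was not tested. With 1 array or 1 replicate number left out, the genes whose sign turned had these ranges. At 5 µM against untreated they were -0.0539 to 0.0417 for JUN, -0.0188 to 0.0492 for IER2 and -0.0149 to 0.0513 for FOS. At 0.5 nM against untreated they were -0.0347 to 0.0352 for FOS, -0.0517 to 0.0296 for JUNB, -0.0302 to 0.0317 for EGR1, -0.0738 to 0.0528 for IER2, -0.165 to 0.111 for DUSP1 and -0.194 to 0.00346 for ETV1. At 5 µM against 0.5 nM they were -0.0811 to 0.0091 for JUNB, -0.0669 to 0.0793 for IER2, -0.0986 to 0.0669 for SPRY2, -0.0351 to 0.104 for JUN and -0.0134 to 0.0454 for FOS. 

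With the replicate number as a block, 0 of the 10 genes passed in each comparison and in the F test. Of all 8746 probe sets 12 passed at 5 µM against untreated, 0 at 0.5 nM against untreated, 15 between the doses and 12 in the F test. The main fit did not pair arrays by number. Deviations from group means were correlated over the 5830 probe sets above the dimmest. Between arrays of 1 number r was -0.00035 to 0.33, nearly all above 0, with the pairs of number 3 at 0.30 to 0.33. Between arrays of different numbers r was -0.37 to 0.35, most below 0. The deviations of a group sum to 0 for each probe set, so these ranges depend on each other. Whether arrays of 1 number shared a step was not tested. With the block the unadjusted limma p of DUSP6 between the doses fell from 0.0478 to 0.0113. That of ETV1 at 5 µM against untreated fell from 0.0151 to 0.00776, and that of DUSP5 at 0.5 nM rose from 0.00468 to 0.00631. FOS and JUN have no value with the filter on dim probe sets. The number of arrays limits the precision, and no signal over background was used.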

Other observations

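Several of the genes had the same deposited value, to all its decimals, on more than 1 array. FOS was at 5.62 on 1 array of each group, IER2 at 9.66 on replicate 2 at 0.5 nM and on untreated replicates 2 and 3, DUSP5 at 6.34 on replicates 1 and 3 at 5 µM, EGR1 at 6.25 on 1 array at each dose, and ETV1 at 7.33 on 1 array at 0.5 nM and 1 of untreated cells. This held for 5 of the 10 genes and for 57.9% of all 8746 probe sets. The SD of IER2 in untreated cells, 0.00029 log2, rests on such values. The cause was not tested.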
